A study of Homo sapiens with 6 samples.

Results

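The genes described here are 10 inhibitors and feedback regulators of WNT signalling, namely the dickkopf genes DKK1, DKK3 and DKK4 and the genes APCDD1, SP5, NKD1, AXIN2, RNF43, ZNRF3 and NOTUM. They were chosen by name, on their log2 differences between colony shapes and between culture days in earlier results of these same arrays. Every probe set annotated to one of them alone was taken, which gave 21 of the 54675 probe sets of the array and 10 of the 19775 genes it names. All samples came from HCA-7, an established line of human colorectal cancer cells whose colonies in collagen are either spiky or cystic. A spiky clone (SC1) and a cystic clone (CC3) were grown in type 1 collagen for 5, 10 or 15 days, and the labels name no further treatment or genetic change. RNA of the gel layer that holds the cells was hybridised to Affymetrix expression arrays, with 1 array per clone and day, so there were 3 spiky and 3 cystic arrays. Each colony shape stood for 1 clone, so shape and clone cannot be told apart, and nothing in the labels says that the days were separate cultures. The p-values therefore reflect the spread among these 6 arrays alone, and that spread may be technical.

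Values are on the log2 scale, where a difference of 1 is a 2-fold change. A mean of at least 5 over the 6 arrays was required for testing, and levels under 5 are treated as near background. Array medians lay between 5.18 and 5.34. Of the colorectal epithelium markers, EPCAM, KRT8, KRT18, KRT19, CDH1 and VIL1 had means above 5, whereas KRT20, CDX1, CDX2, CDH17, GPA33 and CEACAM5 did not. Among markers of other cell types, 2 of 10 fibroblast, 4 of 9 leukocyte and 1 of 8 endothelial genes reached a mean of 5, and the defining genes COL3A1, DCN, LUM, PTPRC, CD3E, PECAM1 and KDR were all below it.

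WNT proteins bind Frizzled receptors together with the co-receptors LRP5 and LRP6, which stops the breakdown of beta-catenin and lets it switch on target genes with TCF and LEF proteins. In colorectal epithelium this pathway maintains the stem cell compartment of the crypt, and it is overactive in most colorectal cancers. Many of its targets encode its own inhibitors. DKK1 and DKK4 are secreted proteins that block LRP5 and LRP6, DKK3 is a divergent relative, APCDD1 is a membrane-bound inhibitor, and NOTUM is a secreted enzyme that removes the lipid from WNT proteins. RNF43 and ZNRF3 are membrane ubiquitin ligases that remove Frizzled from the cell surface. NKD1 binds Dishevelled, AXIN2 is a scaffold of the complex that breaks down beta-catenin, and SP5 is a zinc finger transcription factor induced by WNT signalling.

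RefSeq promoter windows on GRCh38.p14, from 250 bases before to 50 bases after the annotated start, were matched for 4 of the 10 genes, DKK1, APCDD1, SP5 and RNF43. DKK3, DKK4, NKD1, AXIN2, ZNRF3 and NOTUM had no entry. The TCF/LEF motif was searched as CTTTGAT and as CTTTGAA on both strands, and it was present in the windows of DKK1 and SP5 and absent from the letters of those of APCDD1 and RNF43. Of all 35116 windows in the table, 6.86% held a match. The DKK1 window, chr10:52314031-52314330 on the plus strand, has 1 match, and the SP5 window, chr2:170715087-170715386 on the plus strand, has 3 that do not overlap. Both are shown, with the matches in capitals, because they hold a match. DKK1 was lower and SP5 higher at day 15 than at day 5 in both clones, but APCDD1 and RNF43, with no match, were also higher. A match in these letters is a description and does not show that a factor binds there.
DKK1: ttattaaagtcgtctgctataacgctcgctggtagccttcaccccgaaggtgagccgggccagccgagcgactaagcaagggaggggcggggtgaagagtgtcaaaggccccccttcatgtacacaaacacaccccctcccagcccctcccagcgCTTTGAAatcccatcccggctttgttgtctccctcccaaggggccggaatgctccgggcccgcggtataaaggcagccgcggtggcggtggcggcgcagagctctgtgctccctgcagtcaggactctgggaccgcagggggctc
SP5: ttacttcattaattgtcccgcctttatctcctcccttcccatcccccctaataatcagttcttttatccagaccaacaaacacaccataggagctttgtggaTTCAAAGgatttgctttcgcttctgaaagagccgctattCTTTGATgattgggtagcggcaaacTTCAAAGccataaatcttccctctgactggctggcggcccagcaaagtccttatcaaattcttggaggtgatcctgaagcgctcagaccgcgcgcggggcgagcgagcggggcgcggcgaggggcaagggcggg

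DKK4, the inhibitor of LRP5 and LRP6, had the widest range over the arrays of all the genes described here, 6.91 log2 units. Its single probe set read 4.45, 5.63 and 10.13 at day 5, 10 and 15 in spiky colonies. In cystic colonies it read 6.56, 6.99 and 11.36. Both day 15 arrays stood far above the other 4, and at each day the cystic array was above the spiky one. Day 15 exceeded day 5 at least 35.0-fold in spiky colonies, where the day 5 array lay under log2 5, and 27.9-fold in cystic colonies. Nearly all of this lay in the late interval, with 4.50 in spiky and 4.37 in cystic colonies between day 10 and 15, against 1.18 and 0.43 between day 5 and 10. DKK4 was at least 2.94-fold lower in spiky than in cystic colonies at day 5, a bound because the spiky array lay under log2 5, and 2.56-fold and 2.34-fold lower at day 10 and 15. The fitted -1.56 (SE 0.19) rests in part on that dim array. An array reads the RNA of all cells in the gel layer, so more expressing cells and more RNA per cell cannot be told apart.

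DKK1, which blocks the same co-receptors, ran the other way on both axes. It stood at 10.14, 10.13 and 9.21 at day 5, 10 and 15 in spiky colonies. The cystic arrays gave 8.72, 8.77 and 6.46. The spiky arrays were all above the cystic ones, and in both clones the day 15 array was the lowest while day 5 and 10 were within 0.05 of each other. DKK1 was 2.68-fold, 2.56-fold and 6.71-fold higher in spiky than in cystic colonies at day 5, 10 and 15 (fitted log2 difference 1.84, SE 0.24). Day 15 was 1.92-fold below day 5 in spiky and 4.79-fold below it in cystic colonies. Across the 6 arrays DKK1 and DKK4 had a Pearson correlation of -0.80, given as a description since the arrays share 2 clones and 3 days.

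DKK3, the divergent dickkopf, was higher in spiky than in cystic colonies at every day and highest at day 15 in both. Its brightest probe set read 10.06, 10.01 and 11.47 at day 5, 10 and 15 in spiky colonies. The same probe set read 6.87, 6.77 and 8.67 in cystic colonies. The groups did not overlap, and the lowest spiky array exceeded the highest cystic one by more than a log2 unit. The difference was 3.20, 3.24 and 2.80 at the 3 days (fitted 3.08, SE 0.13), and day 15 exceeded day 5 by 1.40 in spiky and 1.80 in cystic colonies. DKK3 has 6 probe sets, and they did not all show this. The second brightest gave nearly the same values, with differences of 3.35, 3.19 and 2.79. The third read 6.13, 5.71 and 7.66 in spiky colonies and 4.14, 4.13 and 4.02 in cystic colonies, so its late increase appeared in the spiky clone and not in the cystic clone, where it stayed under 5. The next reached 5 on the spiky day 15 array alone, and the dimmest 2 stayed under 4 on all arrays.

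**Figure D1:**
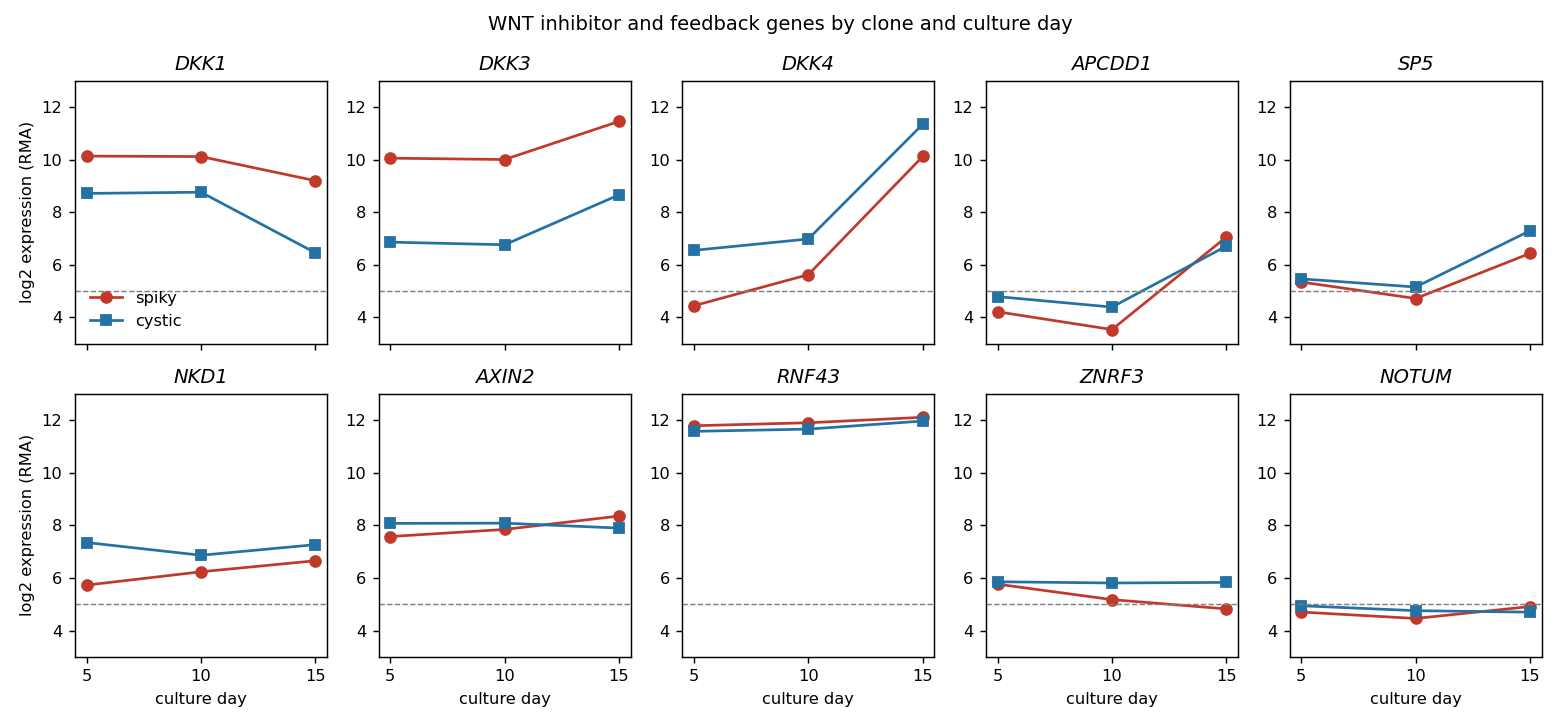
Log2 expression (RMA) against culture day for the 10 genes, each by its brightest probe set, with red circles for the spiky and blue squares for the cystic clone, 1 array per point, and a dashed line at log2 5. DKK4, APCDD1 and SP5 are highest at day 15 in both clones, DKK1 is lowest there, and DKK1 and DKK3 lie higher in the spiky clone at every day.

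APCDD1 and SP5 shared the late increase of DKK4. APCDD1, the membrane-bound inhibitor, was under log2 5 on all 4 arrays of day 5 and 10, at 4.22 and 3.54 in spiky and 4.80 and 4.40 in cystic colonies. At day 15 it reached 7.06 in spiky and 6.72 in cystic colonies, at least 4.18-fold and at least 3.29-fold above day 5. Its clones overlapped, with spiky minus cystic values of -0.58, -0.86 and 0.35. The second APCDD1 probe set stayed under 5 on every array, with day 15 minus day 5 at -0.19 in spiky and 0.58 in cystic colonies.

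SP5, the WNT-induced transcription factor, read 5.35, 4.72 and 6.44 in spiky colonies at day 5, 10 and 15. In cystic colonies it read 5.47, 5.16 and 7.30. The day 15 arrays were the highest in both clones, 2.13-fold above day 5 in spiky and 3.56-fold above it in cystic colonies, and the spiky array was the lower one at each day. Over the 6 arrays DKK4 correlated with APCDD1 at 0.922 and with SP5 at 0.905, and SP5 with DKK1 at -0.81 (Pearson, description only). All day 5 and 10 arrays of APCDD1 lay under 5, as did the spiky day 10 array of SP5 and the spiky day 5 array of DKK4. The value for APCDD1 thus rests mainly on its day 15 arrays set against signal near background.

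NKD1, the Dishevelled-binding inhibitor, was lower in spiky than in cystic colonies on every array of its brightest probe set. It read 5.73, 6.24 and 6.66 in spiky and 7.35, 6.86 and 7.27 in cystic colonies. The gap was -1.62, -0.63 and -0.61 at day 5, 10 and 15 (fitted -0.95, SE 0.22), so it was widest at day 5. The dimmest of its 3 probe sets gave a mean difference of -0.94 ± 0.21 (SD, 3 days) and the middle one -0.21 ± 0.12, both negative at all 3 days but unequal in size.

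AXIN2, the most widely used readout of WNT target activity, was read by 4 probe sets that disagreed on its course. The brightest gave 7.58, 7.85 and 8.36 in spiky and 8.08, 8.09 and 7.90 in cystic colonies, so the clones overlapped and changed order by day 15. The dimmest, of a type that can detect related sequences, was 1.48 higher at day 15 than at day 5 in spiky and 1.22 higher in cystic colonies. For the second brightest these values were 1.26 and 0.47, and for the third 1.19 and 0.06. All 4 were positive in the spiky clone, whereas in the cystic clone they ran from -0.18 to 1.22. All 4 were lower in spiky colonies at day 5, by -1.04 to -0.30, and at day 15 the differences lay between -0.04 and 0.46.

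RNF43, the ligase that removes Frizzled, was bright and steady, at 11.79, 11.91 and 12.12 in spiky and 11.58, 11.67 and 11.97 in cystic colonies. It differed by only 0.53 between its lowest and highest array, with the spiky array the higher one at each day (fitted 0.20, SE 0.06) and day 15 the highest in both clones. ZNRF3, its paralog, read 5.76, 5.18 and 4.82 in spiky and 5.86, 5.81 and 5.83 in cystic colonies. The cystic arrays were level, while each spiky array was below them, by -0.09 at day 5 and at least 1.78-fold at day 15, where the spiky array lay under 5. NOTUM stayed under 5 on all 6 arrays, from 4.46 to 4.91 in spiky and 4.70 to 4.94 in cystic colonies, and was not tested.

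**Figure D2:**
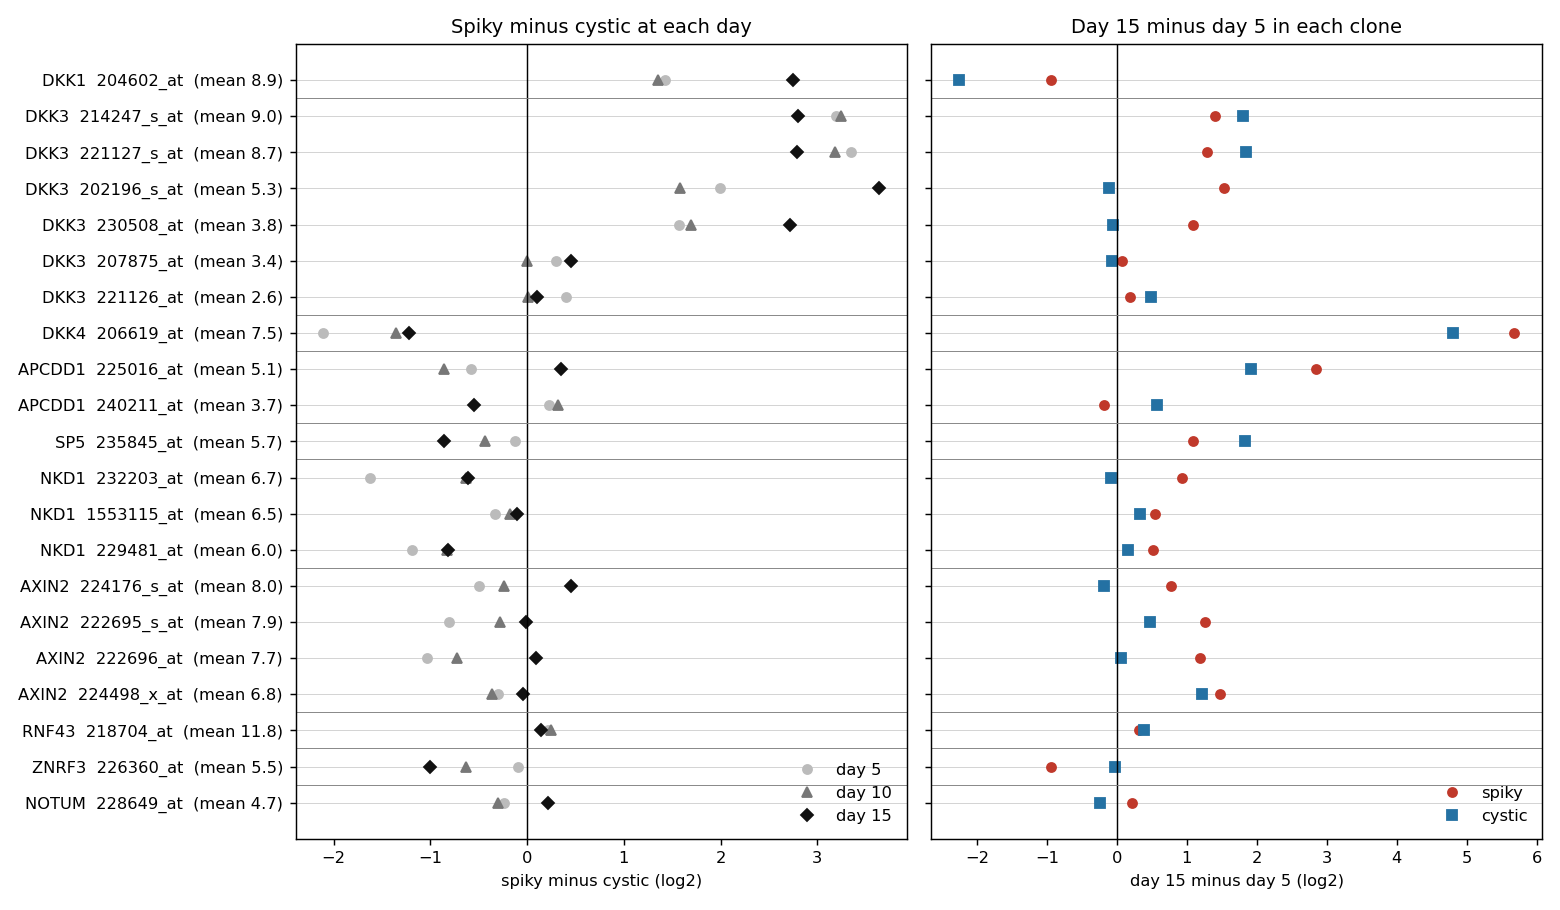
Log2 differences for all 21 probe sets, spiky minus cystic at each day on the left and day 15 minus day 5 in each clone on the right, 1 array per value in each difference, with the mean level in brackets. The 4 brighter DKK3 probe sets lie to the right of 0 at all 3 days on the left, and the 4 AXIN2 probe sets are positive in the spiky clone but spread from -0.18 to 1.22 in the cystic clone on the right.

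Of the 10 genes 9 were bright enough to enter the limma fit of all genes, and 16 of their 21 probe sets had a mean of at least 5. For spiky against cystic, 4 of the 9 passed Benjamini-Hochberg adjustment, DKK1 and DKK3 higher and DKK4 and NKD1 lower, where 11.4% of all tested genes passed (3.65% higher and 7.74% lower). For day 15 against day 5, 6 of the 9 passed, DKK3, DKK4, APCDD1, SP5 and RNF43 higher and DKK1 lower, where 32.3% of all tested genes passed (10.4% higher and 21.9% lower). Since both contrasts were known when the genes were listed, these counts describe the genes and support nothing further. APCDD1, with a mean of 5.12, met the filter only through its day 15 arrays, all its day 5 and 10 arrays being under 5. Its entry thus favoured its call for day and its place, below, among genes with both day 15 arrays above all others. With the median of each gene's probe sets in place of the brightest one, 2 passed for colony shape, DKK1 and DKK4. For culture day 4 did, DKK1, DKK4, RNF43 and SP5. The medians of DKK3 and APCDD1 averaged under 5, so these genes were not tested there, whereas NKD1 was tested for shape and did not pass. Without culture day in the model 0 passed for colony shape, where 72 of all 12317 genes passed. The calls of NKD1 for shape and of RNF43 for day were lost without either day 5 array, and that of DKK1 for day without the cystic day 5 array. Those of NKD1 for shape and RNF43 for day were also lost without an intensity trend in the variance prior. NKD1 did not pass for shape without the filter on dim genes either. Without colony shape in the model DKK1, DKK3 and RNF43 did not pass for day. RNF43 passed for shape without either day 15 array, and AXIN2 passed for day without the cystic one. The clones' arrays did not overlap for DKK1, DKK3, NKD1 and ZNRF3, a pattern held by 15.6% of tested genes. Both day 15 arrays lay above all others for DKK4, APCDD1, SP5 and RNF43, as for 15.2% of tested genes, and 0 of the 9 had both day 15 arrays below all others, as 25.2% of tested genes did. In size, whatever its sign, the step from day 10 to 15 exceeded that from day 5 to 10 in both clones for 7 of the 9. These were all but NKD1 and ZNRF3, and 44.1% of tested genes did the same. For AXIN2 the late step was 0.51 in spiky and -0.19 in cystic colonies.

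The median fitted difference of the 9 genes was -0.36 for spiky minus cystic and 0.42 for day 15 minus day 5, beside -0.03 and -0.11 over all tested genes. A test of whether change per 10 days differed between the clones called 0 of 12317 genes in limma, 0% of those tested, with 309 at an unadjusted p under 0.05. It takes change as linear in day, with 2 residual degrees of freedom, whereas 7 of the 9 genes changed more in the late than in the early interval. A course that is not straight widens the SE, so 0 calls do not show that the clones shared a course. Fitted slope differences, spiky minus cystic, were 1.32 (SE 0.83) for DKK1, 1.01 (SE 0.52) for NKD1 and 0.96 (SE 0.40) for the brightest AXIN2 probe set. They were 0.92 (SE 1.57) for APCDD1, -0.92 (SE 0.46) for ZNRF3 and 0.88 (SE 1.60) for DKK4. The remaining genes gave -0.74 (SE 1.12) for SP5, -0.40 (SE 0.82) for DKK3 and -0.07 (SE 0.22) for RNF43. Without the spiky day 5 array this test called 33 genes, and without the spiky day 10 array 1.

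Other measures moved with culture day beside these genes, and their part in the values was not tested. By limma with Benjamini-Hochberg adjustment 10.4% of all tested genes passed as higher at day 15 than at day 5 and 21.9% as lower. Of 8 tested hypoxia genes 7 passed as higher and 0 as lower, with all 8 differences positive and a median of 1.84. The hydroxylase gene EGLN3 stood at 3.01 (SE 0.25). Its day 5 and 10 arrays were under 5, so it met the filter only through its day 15 arrays, which favoured its difference for day. Of 10 proliferation genes 8 passed as lower and 0 as higher, with 9 differences negative, 1 positive and a median of -0.80. For the ACTB control probe sets, signal at the 3' end minus signal at the 5' end was 2.73, 2.74 and 3.10 at day 5, 10 and 15 in spiky and 2.83, 3.18 and 3.28 in cystic colonies, and that of GAPDH was 0.60, 0.63 and 0.49 against 0.65, 0.79 and 0.63. The log2 of the summed fibroblast marker signal lay between 7.97 and 8.54 on spiky and between 8.04 and 8.86 on cystic arrays. COL1A1 rose by 1.38 (limma adjusted p = 0.00203), and the fibroblast genes COL3A1, DCN and LUM stayed under 5. The same sum was 7.35 to 7.79 on spiky and 7.93 to 8.40 on cystic arrays for leukocyte markers, and 7.52 to 7.73 and 7.33 to 7.66 for endothelial ones. Between the clones the hypoxia and proliferation medians differed by -0.07 and 0.00. The 4 tested leukocyte markers had a median of -0.75, all of them negative. LCP1 alone of these passed, at -1.45 (limma adjusted p = 0.00421), with CSF1R at -0.93, CORO1A at -0.58 and CD3D at -0.10. For colony shape 11.4% of all tested genes passed.

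Genes whose course over the 6 arrays was most like that of DKK4, DKK3 and AXIN2 were sought among the 3588 tested genes with a range of at least 1 log2 unit. For DKK4 the 5 closest were HS2ST1, which encodes a heparan sulfate sulfotransferase, the sodium and glucose cotransporter gene SLC5A1, the metalloprotease gene MMP19, SELENBP1 and RND2. Their Pearson correlations lay between 0.992 and 0.994, but their day 15 minus day 5 differences, 0.88 to 1.57, were far smaller than the 5.24 of DKK4. For DKK3 they were TMEM256, the transmembrane collagen gene COL13A1, HCFC1R1, the neuropilin gene NRP1 and CRIM1, at 0.980 to 0.994. COL13A1 had the largest spiky minus cystic difference of these, 2.25, beside 3.08 for DKK3. For AXIN2, by its brightest probe set, the closest were ZNF256, SORL1, FAM171B, NPC2 and INSIG1, at 0.912 to 0.952. With 6 arrays from 2 clones many genes reach such values, and 92 genes correlated with DKK4 above 0.95, against 20 for DKK3 and 1 for AXIN2.

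**Figure D3:**
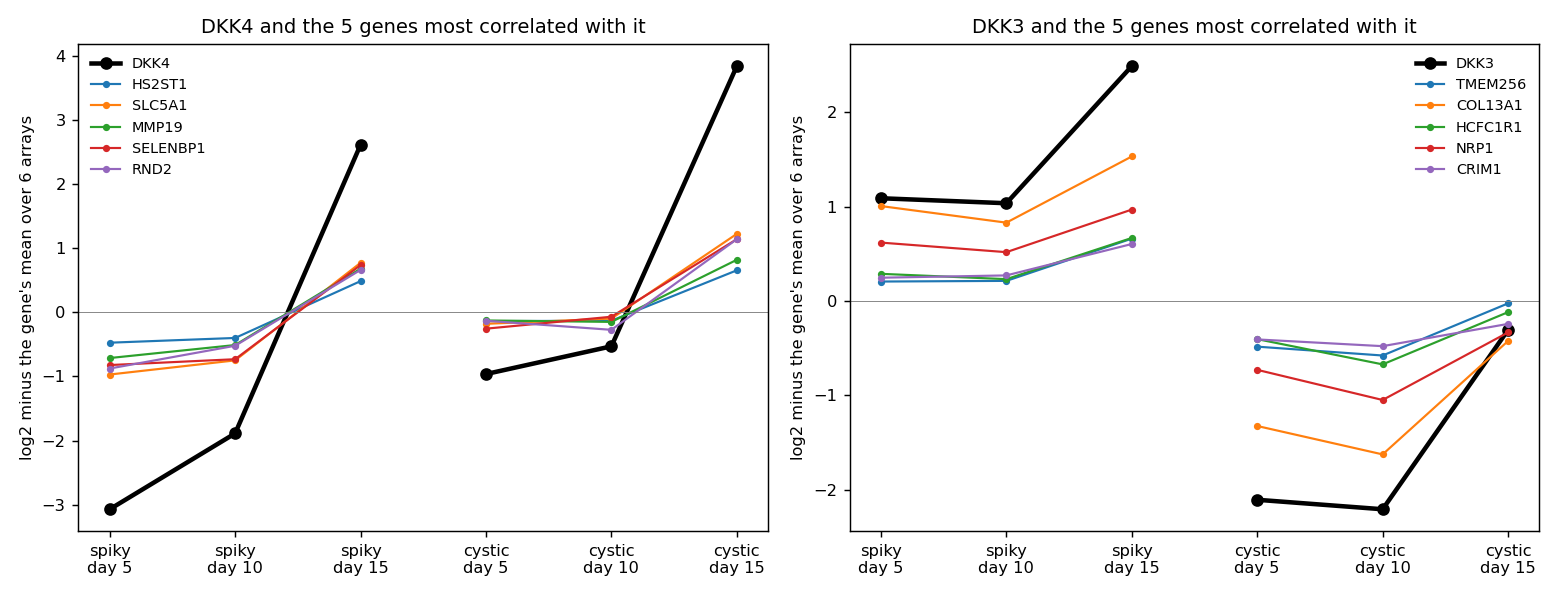
Log2 expression minus the gene's own mean over the 6 arrays (vertical axis) on each array, spiky clone at day 5, 10 and 15 and then cystic clone, for DKK4 (left) and DKK3 (right) in black and the 5 genes most correlated with each in colour. The neighbours follow the shape of both genes with a smaller spread, and COL13A1 comes nearest to DKK3 in size.

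The rest of the pathway was read through 120 listed genes, of which 73 were bright enough to test. For spiky against cystic 6 were higher and 7 lower by limma with Benjamini-Hochberg adjustment, and the median of the 73 was -0.07. That is 13 of 73, where 11.4% of all tested genes passed (3.65% higher and 7.74% lower). For day 15 against day 5, 9 were higher and 7 lower, with a median of 0.03. That is 16 of 73, where 32.3% of all tested genes passed (10.4% higher and 21.9% lower). Without the spiky or the cystic day 5 array 5 passed for colony shape in each case, and without either day 10 array 7 did. For culture day 4 passed without the spiky day 5 array. The lists were drawn up with earlier results of these arrays known.

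Among other extracellular inhibitors and co-receptors, 4 of 17 could be tested, since DKK2, WIF1 and all SFRP genes had means under 5. IGFBP4, a binding protein of insulin-like growth factors that also binds LRP6, had 4.84, 5.63 and 7.20 in spiky and 6.29, 6.26 and 8.83 in cystic colonies. It was lower in spiky colonies (-1.24, SE 0.22, limma adjusted p = 0.0075) and higher at day 15 (2.45, SE 0.26, adjusted p = 0.000666), both sizes resting in part on a spiky day 5 array under 5. The first call was lost without either day 5 array (adjusted p = 0.0728 and 0.0736 without the spiky and the cystic one; 0.00063 to 0.756 over all alternatives). The second was lost without colony shape in the model (adjusted p = 0.0633; 4.7e-06 to 0.0633 over all alternatives). KREMEN1, a co-receptor for dickkopf proteins, rose by 0.97 by day 15 (SE 0.18, limma adjusted p = 0.00466), in the same sense as 3 of 3 other bright probe sets. Without the cystic day 5 array it had adjusted p = 0.0603 (0.00261 to 0.0603 over all alternatives).

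Among ligands and secretion genes 0 of 10 passed for colony shape in limma, where 11.4% of all tested genes did. Of these 10, 0 had an unadjusted p under 0.05. The largest differences were those of WLS (0.30) and WNT11 (-0.29), with limma adjusted p = 0.283 and 0.356. By day 15 WLS, the carrier needed for WNT secretion, fell by 1.12 (SE 0.19, adjusted p = 0.00325) and the ligand gene WNT10B fell by 1.15 (SE 0.21, adjusted p = 0.0041). Both calls were lost without the spiky day 5 array, at adjusted p = 0.0634 and 0.0825, and these were the highest values over all alternatives, the lowest being 9.57e-05 and 0.00202.

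Of 13 tested receptor genes 3 were higher and 1 lower in spiky colonies, where 3.65% and 7.74% of all tested genes were. LRP5 and LRP6, the dickkopf targets, stood at 0.40 and -0.33 without passing. ROR1, a receptor for non-canonical WNT signals, read 6.14, 5.97 and 5.81 in spiky and 5.04, 4.02 and 4.31 in cystic colonies (fitted 1.52, SE 0.21, limma adjusted p = 0.00265). The cystic arrays of day 10 and 15 lay under 5, so the size of this difference is limited by background. With a cystic mean of 4.46 and an overall mean of 5.22, ROR1 met the filter only through its spiky arrays. Its entry thus favoured its call for colony shape. LGR6, an R-spondin receptor, was at -1.36 (SE 0.18, adjusted p = 0.00196). FZD4 was at 0.69 (adjusted p = 0.0389), a call lost on leaving out any 1 array (adjusted p = 0.0789 to 0.108; 0.0285 to 0.304 over all alternatives). Without culture day in the model ROR1 and LGR6 had adjusted p = 0.0709 and 0.0562, the highest over all alternatives, the lowest being 0.000888 and 7.64e-05. FZD3 alone passed for culture day, where 32.3% of all tested genes did, at 0.78 (SE 0.20, adjusted p = 0.0174). For FZD3, 2 of 2 other bright probe sets had the same sign. It was lost without the spiky day 5, the cystic day 5 or the spiky day 15 array, at adjusted p = 0.159, 0.0735 and 0.0594 (0.0143 to 0.436 over all alternatives).

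Of 20 tested transducers and destruction complex genes only DVL1 passed for colony shape, at 0.34 (limma adjusted p = 0.0489, and 0.274 to 0.29 without any 1 array of day 5 or 10; 0.0129 to 0.449 over all alternatives). Of all tested genes 11.4% passed for colony shape. By day 15, 3 of the 20 passed as higher and 0 as lower, where 10.4% and 21.9% of all tested genes did. TNKS, which encodes the tankyrase that targets axin proteins for breakdown, was at 0.86 (SE 0.14, adjusted p = 0.0026), but its other 2 bright probe sets were at 0.17 and 0.25, and without the spiky day 5 array it had adjusted p = 0.0551 (0.000601 to 0.393 over all alternatives). CSNK1D was at 0.33 (adjusted p = 0.0255), with 1 of its 2 other bright probe sets of opposite sign and with adjusted p from 0.062 to 0.168 without any 1 array of day 5 or 10 (0.00546 to 0.281 over all alternatives). Beta-catenin itself, CTNNB1, was at -0.22 between the clones and 0.05 over time and passed neither test.

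Of 9 tested nuclear factors 0 passed for colony shape, where 11.4% of all tested genes did, and 1 had an unadjusted p under 0.05. TLE3 was at 0.58 (limma adjusted p = 0.0514) and TLE5 at -0.29 (adjusted p = 0.302). Without the spiky or the cystic day 15 array both passed, TLE3 at adjusted p = 0.0281 and 0.0255 and TLE5 at 0.0469 and 0.0457 (0.00745 to 0.496 and 0.0457 to 0.833 over all alternatives). TLE3 passed in 6 of 13 alternatives and TLE5 in 2 of 13. The 3 other bright TLE3 probe sets had the same sign, at 0.67 to 0.93, and TLE5 has no other. TCF7L2, the main partner of beta-catenin in intestinal epithelium, was higher at day 15 by 1.03 (SE 0.11, adjusted p = 0.000617). It read 10.06, 9.99 and 11.02 in spiky and 9.83, 10.06 and 10.94 in cystic colonies, and 6 of 6 other bright probe sets had the same sign, at 0.90 to 1.49. The call held in all 13 alternatives (adjusted p from 3.57e-05 to 0.021). The corepressor gene TLE1 was at -0.46 (adjusted p = 0.0272), a call lost without any 1 array of day 5 or 10 (adjusted p = 0.0548 to 0.275; 0.00933 to 0.275 over all alternatives).

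Of 17 other reported WNT target genes 2 were higher and 5 lower in spiky colonies, where 3.65% and 7.74% of all tested genes were. CD44, the hyaluronan receptor, was at 1.03 (limma adjusted p = 0.000236) and the AP-1 gene FOSL1 at 0.79 (adjusted p = 0.0147, but 0.126 and 0.114 without the spiky and the cystic day 5 array and 1.43e-05 to 0.54 over all alternatives). The matrix protease gene MMP7 was at -2.48 (adjusted p = 0.000371) and the transcription factor gene ETS2 at -0.72 (adjusted p = 0.004, 0.196 without culture day in the model and 0.00115 to 0.196 over all alternatives). The calls of CD44 and MMP7 held in all 13 alternatives, with adjusted p of at most 0.0199 and 0.0437. For culture day 10.4% of all tested genes passed as higher and 21.9% as lower. By day 15, 2 rose, TBX3 at 0.71 and PTPRO at 0.23, and 4 fell, among them FOSL1 at -1.07 and the survivin gene BIRC5 at -0.43 (adjusted p = 0.00192, 0.0134, 0.00426 and 0.00465). All 4 calls were lost without the spiky day 5 array, at adjusted p = 0.0525, 0.221, 0.0901 and 0.0923. Over all alternatives these p-values reached at most 0.0525, 0.251, 0.167 and 0.0923. The stem cell marker genes LGR5 and ASCL2 had means under 5 and were not tested.

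**Figure D4:**
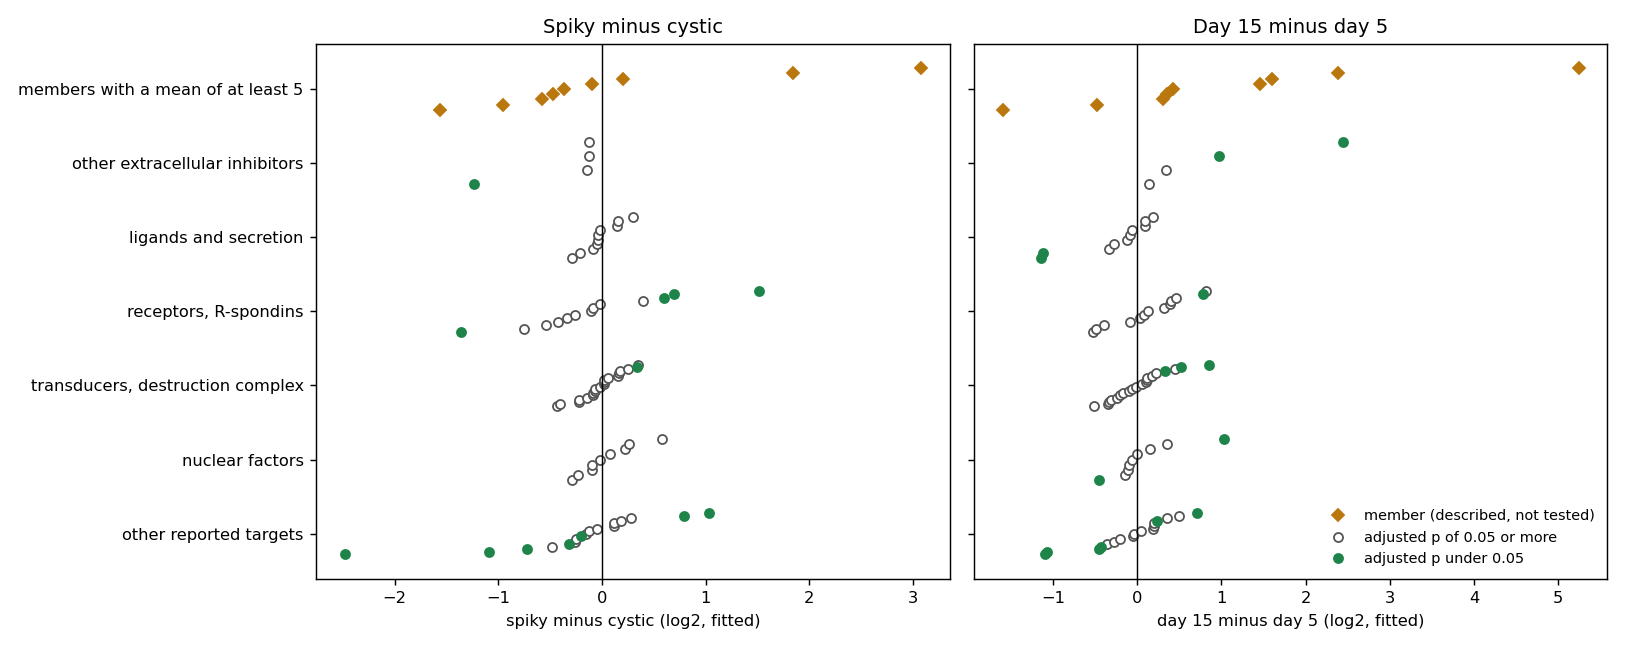
Fitted log2 differences (horizontal axis) of the tested genes of each list, spiky minus cystic on the left and day 15 minus day 5 on the right, 1 point per gene, green where limma's adjusted p was under 0.05, and the described genes as diamonds with no test shown. Most transducers and nuclear factors lie near 0 in both panels, while DKK3 at 3.08 and DKK4 at 5.24 lie farthest right.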

How the data were processed

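The authors deposited log2 values made with RMA, according to the submitters' processing notes. The RMA version and options were not given in the sources used here. Values ran from 1.72 to 15.07 with 0 missing. An array has no read depth, so precision is limited by the number of arrays.

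Gene names came from the platform annotation and were brought up to date by gene ID with the RefSeq table of GRCh38.p14 (41043 of 41097 single-symbol probe sets matched). The brightest probe set on average stood for each gene, and 12317 genes averaging at least 5 were tested. Limma 3.58.1 (R 4.3.3) was fitted to all 6 arrays on colony shape plus day as a factor, variances following the intensity trend, 2 residual degrees of freedom, two-sided tests and Benjamini-Hochberg adjustment at 0.05. A second model took day as a number with its interaction with shape. Day is a factor of the design and was kept as a block. Deviations from the clone means correlated at 0.608, 0.496 and 0.719 between the arrays of day 5, 10 and 15, across genes.

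The genes described and all lists were chosen with earlier results of these data known, so the 10 genes were given no p-value. Per pathway list and comparison, up to 2 higher and 2 lower genes of smallest p were named, or, where none passed, the 2 with the largest absolute difference, and for likeness the 5 genes with the highest Pearson correlation. LRP5, LRP6, CTNNB1, LGR5, ASCL2, EGLN3, COL1A1, CLDN5 and the tested leukocyte markers were added after their values were seen. So were the genes named as under 5. Folds against arrays under 5 set these to 5 and are lower bounds. The fits were tested on simulated data. Figures were drawn with matplotlib 3.10.9. Alternatives covered the filter, scaling, choice of probe set, the variance prior, day or shape in the model, the unit tested and each array left out.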

Additional observations from a re-analysis of the deposited data

How the results depend on the processing

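Without the replicate block of culture day, colony shape called 72 genes in place of 1403, 0 of the 10 genes described in place of 4, and 2 of the other pathway genes in place of 13. Without an intensity trend in the variance prior it called 691 genes and 7 other pathway genes, and with every probe set on its own 2462. The median of each gene's probe sets left 2 of the 4, since NKD1 did not pass and DKK3 fell under the filter and was not tested. With 1 array left out, colony shape called 507 to 2157 genes and 5 to 19 other pathway genes. Culture day called 3982 genes, 7122 with every probe set on its own and 1457 without colony shape in the model, which left 3 of the 6 described genes and 6 of 16 other pathway genes; with 1 array left out it called 761 to 4318 genes and 4 to 20 other pathway genes. The slope difference called 0 to 33 genes with 1 array left out. Centring arrays on their medians put 55.5% of the colony shape calls on the lower side against 67.9%, and cyclic loess 55.1% of the culture day calls against 67.7%.

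The differences of the 10 genes kept their sign in 88 of 90 alternatives for colony shape and 85 of 90 for culture day. The exceptions came from leaving out 1 array and concerned AXIN2 for shape and AXIN2, NKD1 and NOTUM for day. Many of these alternatives repeat another one or could not change the value, so the counts overstate how far the signs were tried. For shape, leaving out either array of a day gave the same estimate, and the AXIN2 exceptions are the same value, 0.11. For day, leaving out a day 10 array left the difference as it was. The median over probe sets changed nothing for genes with a single one. The genes were also chosen on these differences. The median over probe sets gave DKK3 1.98 and 0.61 and APCDD1 1.29 over time. Signal near background limits NOTUM and the early APCDD1 values.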
